A study of Mus musculus with 6 samples.

Results

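The genes examined here are the nuclear genes of oxidative phosphorylation, the mitochondrial process that makes most of a cell's ATP. They were chosen by symbol alone, as every gene whose name begins with Nduf followed by a, b, c, s or v, with Uqcr, with Cox4 to Cox8 or with Atp5, together with Sdha, Sdhb, Sdhc and Sdhd. The annotation of the array names 90 such genes among 18194 genes, and each gene was read at its probe set of highest mean signal. The 90 comprise 36 genes of complex I, 8 assembly factors of that complex, 4 genes of complex II, 8 of complex III, 17 of complex IV and 17 of complex V. Of these, 86 passed the filter on dim probe sets, and they are set beside the 11425 of all genes that passed it.

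The samples are olfactory epithelium, the odour-sensing lining of the nose, from mice that carry the OMP-GFP allele. One group is homozygous for OMP-GFP and the other heterozygous, with 3 samples each, and each sample was hybridised as total RNA to 1 Affymetrix mouse 430 2.0 array. As background, OMP-GFP puts green fluorescent protein in place of olfactory marker protein, a cytosolic protein of mature olfactory neurons, so the homozygous mice lack the protein and the heterozygous mice have an intact copy. Both groups carry GFP and no group without it was analysed here, so the loss of the protein and the dose of GFP cannot be told apart. The labels give no age, sex or strain and do not say if a sample came from 1 mouse or several, and p-values reflect only how far these samples vary, part of which may be technical.

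As background, complexes I and II pass electrons from NADH and succinate to ubiquinone, complex III passes them on to cytochrome c, and complex IV gives them to oxygen. Complexes I, III and IV pump protons across the inner mitochondrial membrane, and complex V, the ATP synthase, lets them flow back to make ATP. Several subunits of complex IV come in forms specific to muscle, lung or testis. In the olfactory epithelium, mature neurons spend ATP on ion pumping and on clearing calcium, and the supporting cells are also rich in metabolic enzymes.

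The signals are MAS5 values on a linear scale, with a median per array between 147.9 and 163.7. The targeted gene Omp has 2 probe sets. At 1422199_at the signal was 5.7, 8.8 and 31.3 in homozygous 1, 2 and 3, against 26.3, 4664 and 9143 in the arrays labelled heterozygous 1, 2 and 3, so the array labelled heterozygous 1 lies with the homozygous arrays there. At 1422200_at it lay between 7919 and 8774 in homozygous arrays and between 7968 and 8709 in heterozygous ones. Where either probe set lies in the gene is not given in the sources used here, so neither settles the labels. The counts by direction, the medians by complex and some single genes are also given without the array labelled heterozygous 1. Other results, such as the counts of genes without overlap and the intervals, include it. The tissue showed its markers: 10 of 11 measured markers of mature olfactory neurons and all 9 of supporting and gland cells passed the filter. The array labelled heterozygous 3 had the lowest summed signal of the mature neuron markers, 66672 against 78291 to 86640 on the other arrays, and the highest of the bulb and brain neuron markers, 12521 against 9109 to 9546. Of the 10 tested mature neuron markers 7 were lowest there, while Slc17a6 was highest, at 2724.5. Of the 8 tested bulb and brain markers 6 were highest there, while Eomes was lowest, at 205.2. Most of the bulb and brain sum came from Snap25, at 3869.8 to 4912.1, and Syt1, at 2884.1 to 3263.8. The array labelled heterozygous 1 had a summed signal of myelin and glial markers of 21848, against 11131 to 11738 on the others. Most of the excess came from Mbp, at 7268.5, and Pmp22, at 4898.6. Cnp, Mag and S100b were also highest on that array, Sox10 and Gfap were not, and Fabp7 and Mog were lowest there.

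Oxidative phosphorylation genes differed little between homozygous and heterozygous epithelium. None of the 86 tested genes passed adjustment in limma, where 0% of all genes did, and the lowest adjusted p among them was 0.859. At an unadjusted p under 0.05 there were 4 of the 86, or 4.65%, against 4.82% of all genes tested. These were Ndufs5, Atp5d and Cox5a, lower in homozygous arrays, where 2.42% of all genes fell in that class, and Cox8c, higher there, where 2.41% did. Differences are given as homozygous minus heterozygous log2 signal, and their median was -0.019, beside -0.0004 over all genes. The differences ran from -0.34 for Ndufs5 to 0.35 for Cox8c, and 74 of the 86, or 86.0%, were smaller than 0.1 in either direction, beside 63.2% of all genes. In related lists described below that share was 86.7% for electron carriers and exchangers, 82.4% for the tricarboxylic acid cycle and 94.1% for glycolysis. It was 62.2% for assembly factors with other names and 53.3% for regulators of mitochondrial biogenesis. The 86 genes are mostly bright, and 77 of them also passed a filter at the 75th percentile of mean log2 signal. The set of all genes was not matched to them for signal, and the part of signal level in these shares was not tested. For 72 of the 86 the 95% interval of the difference lay within a change of 1.25-fold in either direction. For the other 14 the arrays do not bound the difference that closely.

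The direction of these small differences depended on scaling and on single arrays. As deposited, 61 of the 86 genes (70.9%) were lower in homozygous arrays, where 50.2% of all genes were. After quantile normalization 44 (51.2%) were lower, beside 51.5% of all genes. Shifting arrays to a common median lowers the difference of every gene by a like amount, so that the median of all genes was -0.0427 and that of the 86 was -0.0613. On that scale 75 of the 86 (87.2%) and 65.4% of all genes were below 0. Leaving out the array labelled heterozygous 2 left 28 lower (32.6%, beside 48.4% of all genes) and turned the median to 0.026. Leaving out the array labelled heterozygous 3 gave 74 lower (86%, beside 53.7% of all genes). Without the array labelled heterozygous 1, 54 were lower (62.8%, beside 47.8%) and the median was -0.020. The medians of complexes I, III and IV, below 0 as deposited, were 0.0015, 0.0041 and 0.0073 after quantile normalization. Without the array labelled heterozygous 2 the medians of all 5 complexes and of the assembly factors were above 0, between 0.0078 for the assembly factors and 0.0347 for complex III. Without the array labelled heterozygous 3 they were all below 0, that of complex II at -0.0183. The signs as deposited held without the array labelled heterozygous 1, with medians from -0.0523 for the assembly factors to 0.0295 for complex II. The directions by complex given below are those of the values as deposited.

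**Figure D1:**
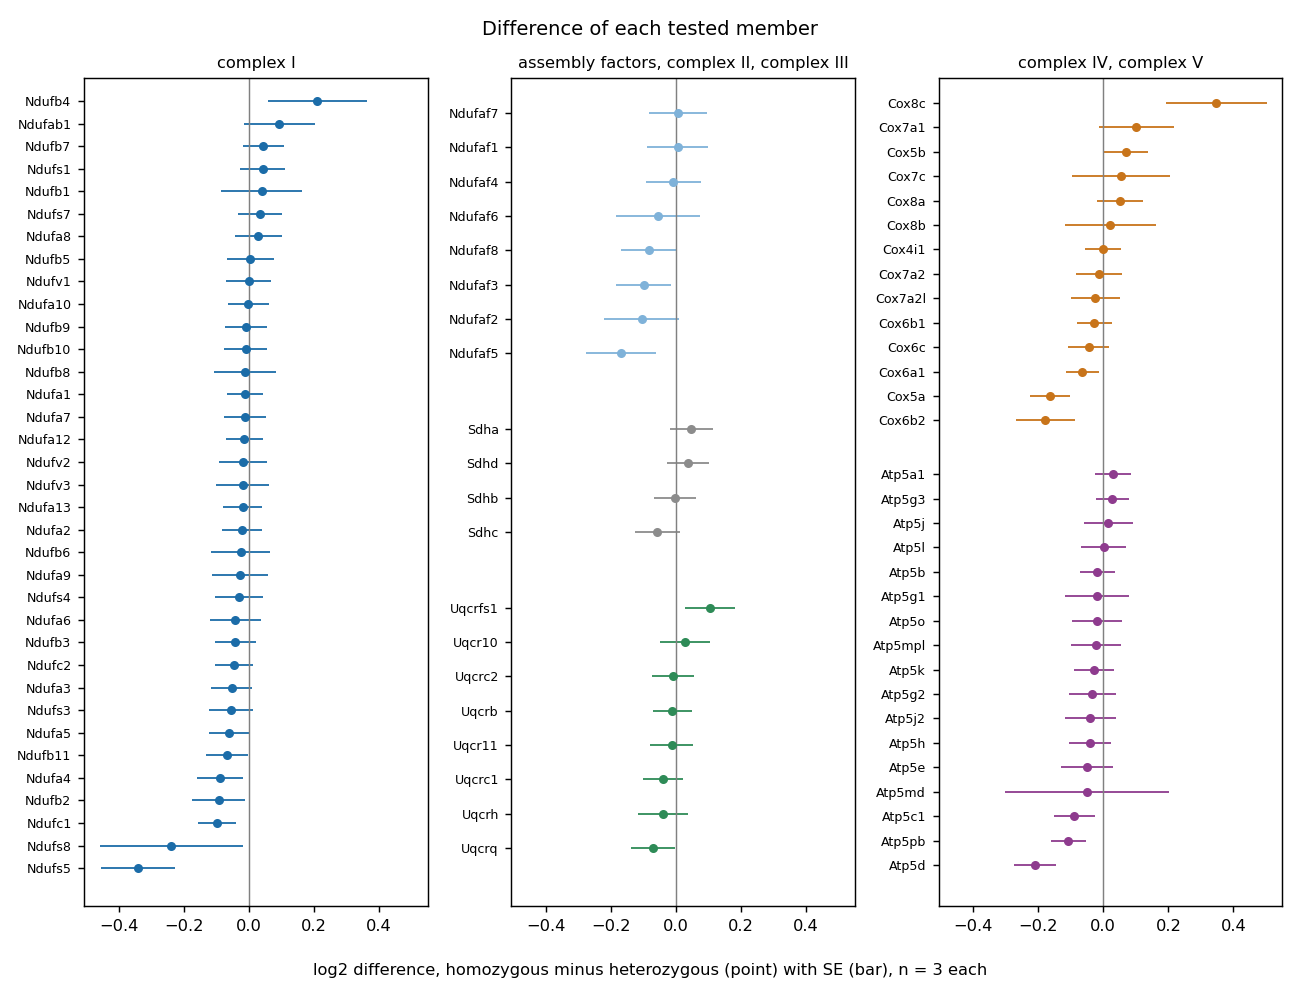
Log2 difference (homozygous minus heterozygous) of each of the 86 tested genes, by complex; points are the estimates and bars their SE (n = 3 arrays each). Most points lie within 0.1 of zero, and Ndufs5 at -0.34 and Cox8c at 0.35 are the ends of the range.

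What the genes shared was a pattern over the arrays that ran across the groups rather than between them. For each gene the deviation of its log2 value from its mean over the 6 arrays was taken. The median deviation of the 86 genes was -0.036, -0.007 and 0.013 in homozygous 1, 2 and 3, and 0.029, 0.090 and -0.082 in the arrays labelled heterozygous 1, 2 and 3. The heterozygous arrays thus held both the highest and the lowest level, with the 3 homozygous arrays between them. The array labelled heterozygous 2 was the highest of the 6 for 51 of the 86 genes (59.3%), beside 18.1% of all genes. The array labelled heterozygous 3 was the lowest for 49 of the 86 (57%), beside 27.5% of all genes. After quantile normalization the deviations of these 2 arrays were 0.054 and -0.064. They were then the highest for 38 genes (44.2%, beside 18.5% of all genes) and the lowest for 44 genes (51.2%, beside 27.6%). With arrays shifted to a common median the deviations were 0.140 and -0.134, beside 0.057 and -0.074 over all genes. There they were the highest for 53 genes (61.6%, beside 25.9%) and the lowest for 54 (62.8%, beside 37.3%).

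By complex, the deviation in the arrays labelled heterozygous 2 and 3 was 0.11 and -0.11 for complex V, 0.095 and -0.097 for complex III, 0.087 and -0.062 for complex I, and 0.045 and -0.078 for complex IV. The complex I assembly factors had 0.16 and -0.093. The 4 genes of complex II had -0.015 and -0.022, with 2 of them lowest in the array labelled heterozygous 3. The part that the neuron and brain markers named above had in the level of the array labelled heterozygous 3 was not tested, and in tissue RNA fewer cells of a type and less RNA per cell cannot be told apart. Between arrays of 1 group the genes varied little, with a median SD of 0.083 on the log2 scale, beside 0.12 over all genes. Related lists described below had a like spread, at 0.075 for carriers and exchangers, 0.081 for the tricarboxylic acid cycle and 0.094 for glycolysis. The median SD was 0.095 for biogenesis regulators and 0.12 for assembly factors with other names.

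**Figure D2:**
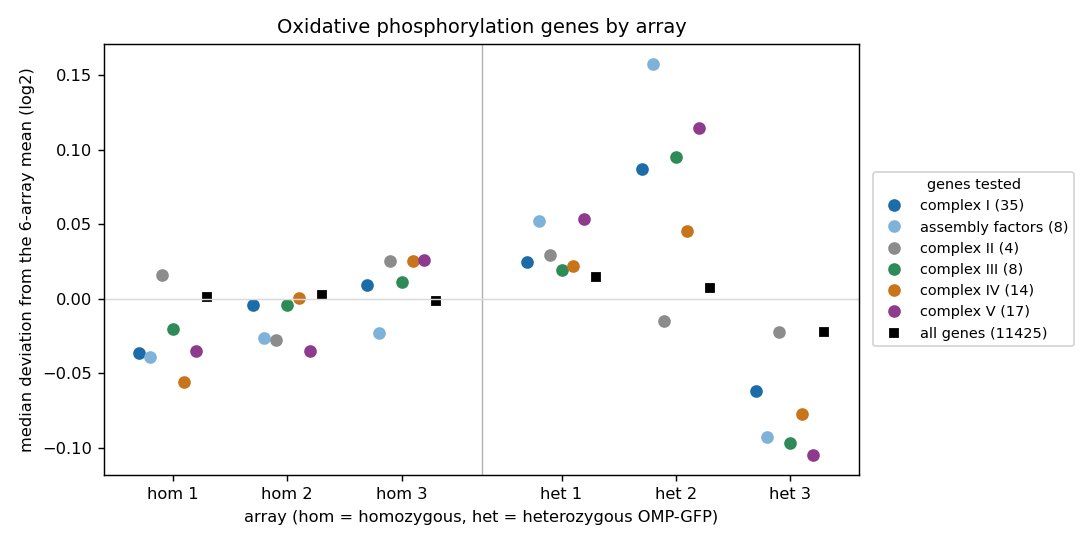
Median deviation of log2 signal from the mean over the 6 arrays, for the tested genes of each complex (coloured points) and for all 11425 genes tested (black squares); homozygous arrays are on the left. The array labelled heterozygous 2 is highest for every set except complex II and all genes, and the array labelled heterozygous 3 is lowest for complexes I, III, IV and V, the assembly factors and all genes.

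The promoters of these genes were examined for motifs of factors known to drive respiratory genes. As background, nuclear respiratory factor 1 (NRF-1), the ETS factor GABP, the oestrogen-related receptors (ERR) and YY1 bind such promoters. RefSeq promoter windows of 300 bases (250 before the start site and 50 after it, build GRCm38.p6) were found for 74 of the 90 genes. The letters GCGCANGCG for NRF-1 were present on either strand in 19 of the 74 windows (25.7%), against 8.83% of 17491 protein-coding genes with a window. CCGGAAG for ETS factors was in 18 (24.3%, against 11.9%), AAGATGGCG for YY1 in 6 (8.11%, against 1.94%) and TCAAGGTCA for ERR in 2 (2.7%, against 0.332%). All 6 YY1 matches began after the start site, between bases 10 and 35 from it. The median GC content was 59.0% in these windows and 56.3% in those of all protein-coding genes, and the NRF-1 and ETS letters are rich in G and C. The NRF-1 letters can match both strands at one place, which counts once, and the ETS letters end with the AAG that opens the YY1 letters. At least 1 of the 4 motifs was in 36 of the 74 windows (48.6%), against 20.5% of those of protein-coding genes. By complex that was 3 of 3 windows for complex II, 9 of 15 for complex V, 3 of 5 for complex III, 4 of 7 for the assembly factors, 14 of 32 for complex I and 3 of 12 for complex IV. The windows are descriptions of letters, and a match is not a binding site.

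**Figure D3:**
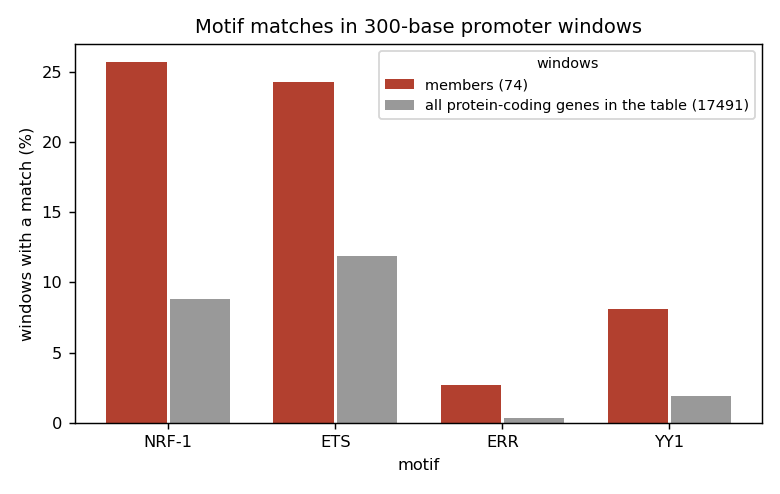
Share of 300-base promoter windows that hold each motif on either strand, for the 74 genes with a window (red) and for 17491 protein-coding genes (grey). The red bar is the higher for each of the 4 motifs, at 25.7% against 8.83% for NRF-1.

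The 150 bases just before the start site are shown for the 3 of the 4 genes of lowest p that have a window, with motif matches in capitals. Ndufs5 holds an NRF-1 match that begins at base -98 from the start site, while Atp5d and Cox5a hold none of the 4 motifs in the whole window.
Ndufs5 (chr4:123718187-123718336, minus strand): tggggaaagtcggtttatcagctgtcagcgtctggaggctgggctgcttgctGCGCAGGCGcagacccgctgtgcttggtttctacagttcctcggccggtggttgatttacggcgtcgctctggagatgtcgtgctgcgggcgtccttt
Atp5d (chr10:80142125-80142274, plus strand): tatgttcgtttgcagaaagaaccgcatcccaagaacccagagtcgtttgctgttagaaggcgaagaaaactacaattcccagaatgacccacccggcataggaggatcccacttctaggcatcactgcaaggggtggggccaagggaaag
Cox5a (chr9:57521082-57521231, plus strand): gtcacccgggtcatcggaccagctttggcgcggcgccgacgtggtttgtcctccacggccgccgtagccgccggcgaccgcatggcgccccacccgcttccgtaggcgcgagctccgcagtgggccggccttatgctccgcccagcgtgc

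The same stretch is shown for 2 subunits of complex II, the complex that departed least over the arrays. Sdha holds 3 NRF-1 matches, at -98, -55 and -10, and Sdhd holds 1 at -79 and an ETS match at -46, with an ERR match past the start site that lies outside the stretch shown. Sdhb, the other gene of complex II with a window, is not shown. It holds no match in this stretch and an ETS match at base 6, past the start site.
Sdha (chr13:74350241-74350390, minus strand): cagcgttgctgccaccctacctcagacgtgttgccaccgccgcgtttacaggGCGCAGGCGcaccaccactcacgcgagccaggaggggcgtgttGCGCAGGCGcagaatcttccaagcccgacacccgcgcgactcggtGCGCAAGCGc
Sdhd (chr9:50603850-50603999, minus strand): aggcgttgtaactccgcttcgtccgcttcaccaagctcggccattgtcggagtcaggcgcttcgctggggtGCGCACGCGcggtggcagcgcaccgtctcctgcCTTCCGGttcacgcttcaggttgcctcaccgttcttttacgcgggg

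The last pair sets the general form of a complex IV subunit, Cox6b1, beside its testis form, Cox6b2, which are described below. Cox6b1 holds an ETS match at -28, and Cox6b2 holds none of the 4 motifs. The pair is an example only. Of another such pair, the general form Cox7a2 and its muscle form Cox7a1 both hold none of the 4 motifs.
Cox6b1 (chr7:30626115-30626264, minus strand): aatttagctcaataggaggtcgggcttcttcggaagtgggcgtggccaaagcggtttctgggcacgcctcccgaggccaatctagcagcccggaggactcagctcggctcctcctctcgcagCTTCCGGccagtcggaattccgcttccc
Cox6b2 (chr7:4753095-4753244, minus strand): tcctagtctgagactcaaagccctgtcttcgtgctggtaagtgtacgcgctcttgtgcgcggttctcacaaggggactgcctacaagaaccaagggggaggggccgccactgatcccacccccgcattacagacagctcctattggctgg

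Complex I, the NADH dehydrogenase, had 35 tested genes, of which 26 were lower and 9 higher in homozygous arrays, with a median difference of -0.019. Ndufs5, an accessory subunit, read 1758, 1964 and 1848 in homozygous 1, 2 and 3, against 1928, 2563 and 2652 in the arrays labelled heterozygous 1, 2 and 3. The groups overlap, because the array labelled heterozygous 1 lies below homozygous 2. Homozygous arrays averaged 1857 ± 103 and heterozygous arrays 2381 ± 395 (SD, n = 3 each). On the log2 scale this was -0.34 ± 0.11 (SE, as for the other genes below), and limma gave an adjusted p of 0.859. If the array labelled heterozygous 1 was left out, it was -0.48 and the adjusted p 0.0992, the lowest over all alternatives.

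Ndufc1, a small accessory subunit, read 6165, 6511 and 6756 in homozygous arrays, against 6941, 6937 and 6901 in heterozygous arrays. All homozygous values lie below all heterozygous ones, and the difference was -0.10 ± 0.06 with an adjusted p of 0.90 in limma. The 2 complex I genes of highest mean signal, Ndufa4 and Ndufa1, differed by -0.09 ± 0.07 and -0.01 ± 0.06. Ndufa4 carries a complex I name, although its protein was later assigned to complex IV. Ndufa1 lies on the X chromosome, and its signal lay between 10946 and 11464 in homozygous arrays and between 10797 and 11837 in heterozygous ones.

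Ndufs8, a core subunit that holds iron-sulfur clusters, was chosen here after its values were seen, for its spread within groups. At its brightest probe set, 1423907_a_at, it read 7157, 5707 and 11090 in homozygous 1, 2 and 3, against 11060, 9861 and 6830 in the arrays labelled heterozygous 1, 2 and 3. The low and high arrays are thus mixed over both groups, and the difference was -0.24 ± 0.22 with an adjusted p of 0.916 in limma. The next probe set, 1434579_x_at, read between 7767 and 8203 in homozygous arrays and between 7662 and 9195 in heterozygous ones, and differed by -0.05. All 5 other probe sets differed by between -0.08 and 0.05. The 1.94-fold range of the first probe set stands beside 1.2-fold at the second.

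The 8 complex I assembly factors, which build the complex without remaining in it, were all tested. Of them 6 were lower and 2 higher, with a median difference of -0.068. Ndufaf5, which modifies the Ndufs7 subunit, read 481, 439 and 485 in homozygous arrays, against 603, 501 and 495 in heterozygous arrays. Every homozygous array lies below every heterozygous one, the difference was -0.17 ± 0.11 and the adjusted p in limma was 0.90. Ndufaf3 and Ndufaf4, which act together early in assembly, differed by -0.10 ± 0.08 and -0.01 ± 0.08. Ndufaf3 varied less in homozygous arrays, between 2534 and 2603, than in heterozygous arrays, between 2430 and 2970.

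Complex II, succinate dehydrogenase, is the only complex of the chain with no subunit encoded in mitochondrial DNA, and it also serves in the tricarboxylic acid cycle. Its 4 genes differed by between -0.06 and 0.05, 2 in each direction. Sdha, the flavoprotein that oxidises succinate, read 5102, 4700 and 4925 in homozygous arrays, against 4923, 4487 and 4843 in heterozygous arrays, a difference of 0.05 ± 0.07. Sdhb, the iron-sulfur subunit, differed by -0.0034 ± 0.07. Of the membrane anchors, Sdhc differed by -0.06 ± 0.07 and Sdhd by 0.04 ± 0.06. Sdhd had the narrowest range of these, from 2897 to 3032 in homozygous and from 2857 to 2959 in heterozygous arrays. At these brightest probe sets the groups overlap for all 4 genes, and their adjusted p values in limma lay between 0.946 and 0.996. At 1435986_x_at Sdhc read 1585, 1566 and 1485 in homozygous arrays, against 1670, 1847 and 1780 in heterozygous arrays, with no overlap. The difference there was -0.19 with an adjusted p of 0.859 in limma. The other tested probe sets of Sdha and Sdhd differed by -0.02 and 0.17. With a gene's probe sets averaged, dim ones included, the complex II median was -0.063, against 0.016 at the brightest ones.

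Complex III, the cytochrome c reductase, had 8 tested genes, of which 6 were lower and 2 higher, with a median difference of -0.012. Uqcrfs1, the Rieske iron-sulfur protein, read 4801, 5186 and 5179 in homozygous arrays, against 5204, 4430 and 4491 in heterozygous arrays. The groups overlap through the array labelled heterozygous 1, and the difference was 0.10 ± 0.08 with an adjusted p of 0.911 in limma. If that array was left out, the difference was 0.18. Uqcrq, a small subunit, differed by -0.07 ± 0.07. Uqcrb, another small subunit, read between 21079 and 21864 in homozygous arrays, against 21685, 23401 and 20005 in the arrays labelled heterozygous 1, 2 and 3. Uqcrh, the hinge protein, read between 9820 and 10761 in homozygous arrays, against 10568, 11836 and 9669. Both had their highest and lowest value within the heterozygous group, and they differed by -0.01 ± 0.06 and -0.04 ± 0.08.

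Complex IV, cytochrome c oxidase, had 14 of its 17 genes tested, of which 8 were lower and 6 higher, with a median difference of -0.0067. Cox5a, a subunit on the matrix side, read 10037, 10044 and 10590 in homozygous 1, 2 and 3, against 11721, 10685 and 11981 in the arrays labelled heterozygous 1, 2 and 3. The groups do not overlap, although homozygous 3 and the array labelled heterozygous 2 lie close together. Homozygous arrays averaged 10223 ± 317 and heterozygous arrays 11462 ± 686 (SD, n = 3 each), and the log2 difference was -0.16 ± 0.06 with an adjusted p of 0.859 in limma. Its other probe sets differed by -0.14 and -0.04.

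The forms of complex IV subunits that most tissues use were nearly level between the groups. Cox4i1 differed by -0.0001 ± 0.05, Cox7a2 by -0.01 ± 0.07, Cox6b1 by -0.03 ± 0.05, Cox8a by 0.05 ± 0.07 and Cox6a1 by -0.06 ± 0.05. Cox7a2 and Cox6a1 had the highest mean signals of this complex, and the adjusted p values of these 5 genes in limma lay between 0.911 and 1.000.

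The tissue-restricted forms were dimmer at their probe sets, which does not by itself rank transcripts, since probe sets differ in sensitivity. Of the testis forms, Cox8c read 168, 222 and 196 in homozygous arrays, against 125, 146 and 164 in heterozygous arrays. The groups do not overlap, by a margin of few units, and the difference was 0.35 ± 0.16 with an adjusted p of 0.869 in limma. The other probe set of Cox8c, 1443789_x_at, read at most 37.3 and did not pass the filter, with a difference of -0.10. Cox6b2 read 511, 513 and 544 in homozygous arrays, against 568, 615 and 606 in heterozygous arrays. It too did not overlap, in the other direction, with a difference of -0.18 ± 0.09 and an adjusted p of 0.890 in limma. Cox7b2 read at most 16.9 on any array and did not pass the filter.

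Of the muscle forms, Cox8b and Cox7a1 passed the filter and Cox6a2 did not, with 70.6 to 110.4 in homozygous and 87.1 to 110.5 in heterozygous arrays. Cox8b read 1685, 1924 and 1916 in homozygous 1, 2 and 3, against 2192, 1941 and 1396 in the arrays labelled heterozygous 1, 2 and 3. The heterozygous arrays again span the homozygous ones, and the difference was 0.02 ± 0.14. Cox7a1 read 291, 294 and 335 in homozygous arrays, against 289, 292 and 267 in heterozygous arrays, a difference of 0.10 ± 0.11. Of 16 skeletal muscle markers 1 passed the filter, Acta1, and the summed signal of the list was 1008 to 1603 in homozygous and 877 to 1228 in heterozygous arrays. Of 5 measured brown fat markers Cidea and Fabp4 passed and Ucp1, the defining one, read at most 37.1. The summed signal of that list was 2055 to 2284 in homozygous and 1252 to 2183 in heterozygous arrays. Cidea read 1646, 1702 and 1844 in homozygous arrays and 1857, 1522 and 929 in the arrays labelled heterozygous 1, 2 and 3, with its highest and lowest values on the same arrays as Cox8b. Fabp4 did not share this, with its lowest value, 203.7, on the array labelled heterozygous 1. Some markers of other cells did, among them Cnga2, Cnga4 and Gng13 of mature neurons and Cyp1a2, Muc2 and Sox2 of supporting and gland cells. The other markers of these lists did not. Of those, Slc17a6 of mature neurons and Cyp2g1 and Bpifa1 of supporting and gland cells were highest on the array labelled heterozygous 3. The part of muscle or fat in the signals of these complex IV genes was not tested. Cox4i2, the lung form, and Ndufa4l2, a relative of Ndufa4 induced by low oxygen, did not pass the filter.

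Complex V had all 17 genes tested, of which 13 were lower and 4 higher, with a median difference of -0.028. Atp5d, the delta subunit of the rotating stalk, read 7425, 7847 and 8207 in homozygous 1, 2 and 3, against 9052, 8566 and 9546 in the arrays labelled heterozygous 1, 2 and 3. All 3 homozygous values lie below all 3 heterozygous ones. Homozygous arrays averaged 7826 ± 391 and heterozygous arrays 9055 ± 490 (SD, n = 3 each), and the log2 difference was -0.21 ± 0.06 with an adjusted p of 0.859 in limma. At its other probe set, 1423716_s_at, the signal was 4748, 4769 and 4709 in homozygous arrays against 4895, 5342 and 4545 in heterozygous arrays, where the groups overlap and the difference was -0.05.

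Atp5pb, a subunit of the fixed peripheral stalk, read 9810, 10038 and 10357 in homozygous arrays, against 10850, 10923 and 10763 in heterozygous arrays. Again no values overlap, and the difference was -0.11 ± 0.05 with an adjusted p of 0.888 in limma. It was 0.0039 at its other probe set. Atp5b, the catalytic beta subunit, and Atp5g3, which encodes the proton-carrying c subunit, had the highest mean signals and differed by -0.02 ± 0.05 and 0.03 ± 0.05.

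Atp5md, a small membrane subunit linked to the pairing of ATP synthases, was chosen after its values were seen, as the tested gene of widest range, 2.11-fold. It read 6227, 3726 and 6050 in homozygous 1, 2 and 3, against 6150, 7312 and 3470 in the arrays labelled heterozygous 1, 2 and 3. Homozygous 2 and the array labelled heterozygous 3 lie far below the other 4, so the low values fall in both groups, and the difference was -0.05 ± 0.25. Homozygous 2 and the array labelled heterozygous 3 were also the lowest of their groups for Ndufs8 at its brightest probe set.

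**Figure D4:**
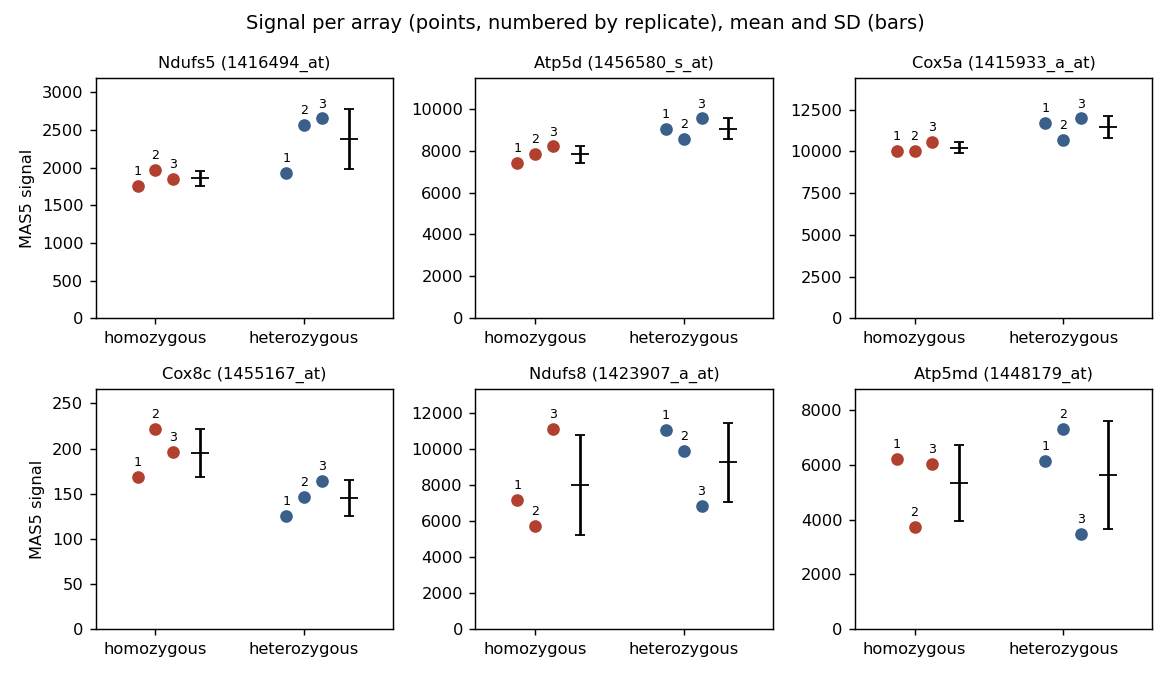
MAS5 signal of 6 genes on each array (points, numbered by replicate), with the mean and SD of each group (n = 3 arrays); axes start at 0. Atp5d, Cox5a and Cox8c do not overlap between homozygous (left) and heterozygous arrays, Ndufs5 overlaps through the array labelled heterozygous 1, and Ndufs8 and Atp5md vary within both groups.

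Of the 86 genes, 7 (8.14%) had no overlap between the groups, where 10.3% of all genes had none. In 6 of them (6.98% of the 86) homozygous arrays were lower, Ndufc1, Ndufaf5, Cox5a, Cox6b2, Atp5d and Atp5pb, and 5.51% of all genes were in that class. In 1, Cox8c (1.16% of the 86), they were higher, beside 4.82% of all genes.

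Different probe sets of a gene gave different answers for a minority of genes. There were 44 genes with more than 1 tested probe set. In 28 of them all differences had one sign and in 16 they had both, and the median spread between the probe sets of a gene was 0.090 on the log2 scale. The spread was over 0.2 in 7 genes. It was widest for Ndufa12, an accessory subunit of complex I chosen after its values were seen. At its brightest probe set, 1455806_x_at, Ndufa12 read 9255 to 9910 in homozygous arrays and 9499 to 10009 in heterozygous ones, a difference of -0.01. At 1418814_s_at it read 4760, 3239 and 4194 in homozygous arrays, against 4942, 5532 and 4853 in heterozygous arrays, with no overlap and a difference of -0.34. Limma gave that probe set an adjusted p of 0.859. Over all 153 tested probe sets of these genes, 11 had an unadjusted p under 0.05 (7.19%), 9 lower and 2 higher in homozygous arrays, beside 5.73% of the 22514 probe sets tested, and none passed adjustment in limma.

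Ndufc2, an accessory subunit of complex I, was chosen after its values were seen. Among the genes described here it is the nearest to Omp on chromosome 7 in RefSeq's order of genes, with 19 annotated genes between them. At 1416366_at it read 4782, 4218 and 5021 in homozygous arrays, against 5333, 6046 and 6194 in heterozygous arrays, with no overlap. The difference was -0.32 with an adjusted p of 0.859 in limma, and it lay between -0.39 and -0.25 when single arrays were left out. At its brightest probe set, 1455036_s_at, it read 9709, 10073 and 9734 in homozygous arrays, against 10458, 10410 and 9612 in heterozygous arrays. The groups overlap there and the difference was -0.05 ± 0.06. The cause of the disagreement between these probe sets was not tested.

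**Figure D5:**
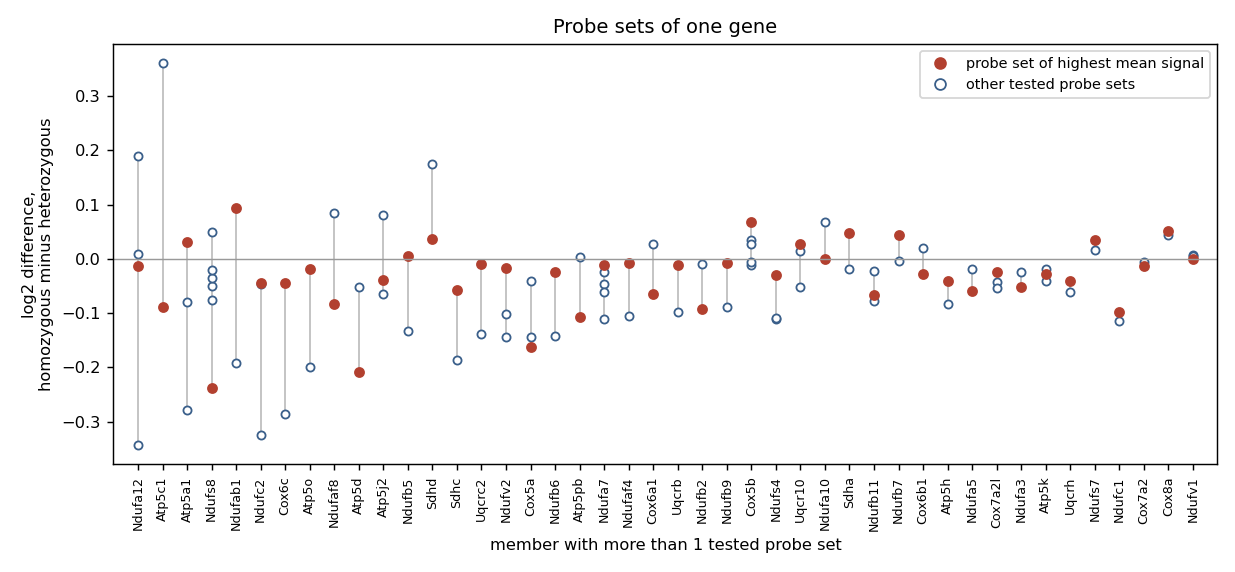
Log2 difference (homozygous minus heterozygous) at each tested probe set of the 44 genes with more than 1, ordered by spread; filled points are the probe sets of highest mean signal and open points the others. Most genes spread by less than 0.2, and Ndufa12, Atp5c1, Atp5a1, Ndufs8, Ndufab1, Ndufc2 and Cox6c by more.

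Related mitochondrial genes were also nearly level, and none passed adjustment in limma. Of 17 tested genes of the tricarboxylic acid cycle and pyruvate dehydrogenase, 10 were lower and 7 higher, with a median difference of -0.020 and none at an unadjusted p under 0.05. Mdh2, malate dehydrogenase, and Cs, citrate synthase, had the lowest p and differed by -0.14 and -0.10. Of 15 genes for electron carriers, exchangers and porins, 7 were lower and 8 higher, with a median of 0.0050 and none at that p. The carnitine carrier Slc25a20 differed by -0.18 and the porin Vdac3 by -0.09. Of 37 tested assembly factors with other names, 23 were lower and 14 higher, with a median of -0.033 and 1 at an unadjusted p under 0.05, Bcs1l, a complex III assembly factor, at -0.27. Coa5, for complex IV, differed by -0.15. Glycolytic genes, a comparison outside the mitochondrion, had 9 of 17 higher, a median of 0.0099 and none at that p. Their lowest p values were those of Eno2 at -0.17 and of the glucose transporter gene Slc2a3 at 0.10.

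Of 15 tested regulators of mitochondrial biogenesis, 10 were lower and 5 higher, with a median of -0.047 and 2 at an unadjusted p under 0.05. Yy1, one of the factors whose motif was searched, read 3038, 3103 and 2982 in homozygous arrays, against 3410, 3457 and 3419 in heterozygous arrays. Homozygous values all lie lower, and the difference was -0.17 ± 0.06 with an adjusted p of 0.859 in limma. Tfb1m, a mitochondrial ribosomal RNA methyltransferase, read 325, 348 and 409 in homozygous arrays, against 418, 432 and 545 in heterozygous arrays, a difference of -0.33 with an adjusted p of 0.859 in limma. Homozygous values all lie below heterozygous ones here, but at its brightest probe set without the suffix _s_at or _x_at, which did not pass the filter, the difference was 0.11.

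Of the subunits encoded in mitochondrial DNA the array annotation names 1, ND5 of complex I. It read 18218, 18069 and 18213 in homozygous 1, 2 and 3, against 14119, 17839 and 16755 in the arrays labelled heterozygous 1, 2 and 3. The groups do not overlap, and the array labelled heterozygous 1 stands lowest. The difference was 0.17 ± 0.08 with an adjusted p of 0.869 in limma. It lay between 0.071 and 0.24 when single arrays were left out, and was smallest without the array labelled heterozygous 1. The nuclear complex I genes did not share this order, with medians of 0.025, 0.087 and -0.062 in the same 3 heterozygous arrays.

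Over the arrays the related lists differed. In the arrays labelled heterozygous 2 and 3, where all genes had median deviations of 0.007 and -0.022, the median deviation was 0.087 and -0.037 for the other assembly factors, 0.034 and -0.055 for carriers and exchangers, 0.017 and -0.025 for the tricarboxylic acid cycle, and -0.016 and -0.023 for glycolysis. The biogenesis regulators had -0.055 and 0.063, the opposite order. No difference between lists was tested.

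Among markers of other cells, none passed adjustment in limma. The median difference was 0.078 for mature neurons, -0.017 for supporting and gland cells, -0.0076 for basal cells, 0.093 for respiratory cilia, -0.22 for bulb and brain neurons, -0.24 for myelin and glia and 0.36 for red cells, over 10, 9, 4, 10, 8, 6 and 5 tested genes. Summed signals overlapped between the groups for basal cells, at 1922 to 2150 in homozygous and 1887 to 2060 in heterozygous arrays, and for respiratory cilia, at 11211 to 12070 in homozygous and 10578 to 11351 in heterozygous arrays. Red cell markers summed to 7264 to 10257 in homozygous and 6691 to 7158 in heterozygous arrays, without overlap. Most of that sum came from Car2, at 2796.5 to 4749.7, and Tfrc, at 2366.5 to 3923.8. The groups overlapped for each of the 5 tested red cell genes taken alone. Supporting and gland cell markers summed to 91194 to 97062 in homozygous and 93794 to 97771 in heterozygous arrays, with overlap. Their part in the results above was not tested.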

How the data were processed

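RNA from 3 homozygous and 3 heterozygous OMP-GFP samples was labelled with biotin and hybridised to mouse 430 2.0 arrays, per the labels' protocols. The deposited values are intensity values per probe set, MAS5 signals per the submitters' processing notes and linear by their range, with version and settings not given in the sources used here. Each array's 2% trimmed mean was 500, so no further scaling was applied. The number of arrays limits the precision, with a median SE of 0.112 on the log2 scale.

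The table holds 45101 probe sets, 64 of them controls. The annotation names 1 gene for 34958, several for 932 and none for 9211. Probe sets naming several genes, 10 of which include a matching symbol, were left out. All 90 symbols matched RefSeq (GRCm38.p6) by gene ID with no change of name, and its table was used for names, chromosomes and gene order. Of the 90 genes, 16 were read at a probe set with the suffix _x_at or _s_at, whose probes may match related transcripts.

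Values were taken as log2(value + 38.8), 38.8 being the 25th percentile of all values, which understates changes of dim probe sets. Probe sets with a mean at or above the 50th percentile were tested, 22514 in all, with limma 3.58.1 in R 4.3.3 (lmFit, eBayes with trend, Benjamini-Hochberg over all probe sets at 0.05), with 4 residual and 6.68 prior degrees of freedom. Intervals of 95% use these degrees of freedom and are not adjusted. The fit was tested on simulated data. The genes and lists were chosen with earlier results of these data known. Genes were named by a rule: per complex the 2 of highest mean signal and the 2 of lowest p, all complex II genes, the tissue forms of complex IV and their partners, every gene at an unadjusted p under 0.05, and the 2 of lowest p in each related list. Replicate numbers did not pair the samples: the correlations of deviations were 0.016, -0.116 and -0.047 for numbers 1, 2 and 3. Alternatives were other offsets, scalings, filters and variance models, a replicate block, arrays left out, and other choices of probe set.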

Additional observations from a re-analysis of the deposited data

How the results depend on the processing

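None of the 86 genes passed adjustment in limma under any alternative, and at an unadjusted p under 0.05 the count stayed between 2 and 5, except for 16 when the arrays labelled heterozygous 1 and 3 were both left out. That setting leaves 1 heterozygous array, assumed to vary like the others, and gave 30 probe sets past adjustment over the whole array, 13 genes higher in homozygous arrays and a median of -0.10. With the pooled median as offset 1 probe set passed over the whole array. Quantile normalization gave 2 genes at the unadjusted p and 42 higher, and shifting arrays to a common median, which moved the median of all genes to -0.0427, gave 11 higher. The replicate block gave 0 genes and 0 probe sets past adjustment, 3 genes at the unadjusted p, and changed no call. With single arrays left out, 0 to 25 probe sets passed, 25 being without the array labelled heterozygous 1, 2 to 4 genes had an unadjusted p under 0.05, 12 to 58 were higher and the median lay between -0.064 and 0.026.

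None of the differences that changed sign had passed. Under quantile normalization those of the named genes were Cox4i1 at 0.022, Ndufaf4 at 0.0016 and Sdhb at 0.021. With a common median, through the shift shared by all genes, they were Atp5g3 at -0.014, Cox8b at -0.021 and Sdhd at -0.0063. With both arrays left out they were Cox8a at -0.011, Cox8b at -0.077 and Cs at 0.0051. With the mean of all probe sets they were Cox8a at -0.054 and Sdha at -0.17 (0.05 at its brightest probe set), and without _x_at and _s_at probe sets Atp5pb at 0.0039, Uqcrq at 0.030 and Tfb1m at 0.11 (-0.33 at its brightest probe set). With single arrays left out the ranges that crossed zero among the named genes were -0.054 to 0.61 for Cox4i2 and -0.18 to 0.040 for Cox7b2, neither of which passed the filter, -0.046 to 0.0066 for Atp5b, -0.037 to 0.027 for Cox4i1, -0.060 to 0.039 for Sdhb, -0.37 to 0.19 for Atp5md, -0.089 to 0.055 for Cox7a2, -0.045 to 0.021 for Ndufa1, -0.061 to 0.071 for Ndufaf4, -0.068 to 0.045 for Uqcrb, -0.11 to 0.036 for Uqcrh, -0.017 to 0.088 for Cox8a and -0.16 to 0.16 for Cox8b. The cause was not tested. The number of arrays limits what could pass, and signals under the offset of 38.8 carry little information on change.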
